A study of Homo sapiens with 12 samples.

Results

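Cadherins and the catenins that anchor them were followed through 15 of the 54675 probe sets on the array. They were taken by gene symbol, every probe set annotated with exactly 1 of 8 genes: the classical cadherins CDH1 and CDH3, the intestinal cadherin CDH17, the cadherin-related genes CDHR1, CDHR2 and CDHR5, and the α- and p120-catenin genes CTNNA1 and CTNND1. CTNNA1 had 5 probe sets, CDHR5 had 3, CDH1 and CDHR1 had 2 each, and CDH3, CDH17 and CDHR2 had 1 each. CTNND1 had none, because all 4 probe sets that carry its symbol also carry that of the readthrough transcript TMX2-CTNND1, so its level is not reported.

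Total RNA from cells of Ls174T, a line grown from a human colon cancer, was hybridised to 12 Affymetrix U133 Plus 2.0 arrays, 3 per group. Ls174T-L8 cells, with a doxycycline-inducible dominant-negative Tcf4 transgene, were taken after 24 h of doxycycline and uninduced. Ls174T-pTER-β-catenin cells, with a doxycycline-inducible short hairpin RNA (shRNA) against β-catenin, were taken after 72 h of doxycycline and uninduced. The design asks which transcripts respond when Wnt output is blocked, the pathway in which β-catenin acts with Tcf4 on DNA. Construct, cell derivative and time differ together between the lines, and cells without a construct that were given doxycycline are not analysed here. The labels do not say whether the derivatives are single clones or whether replicates were grown as separate cultures, so p-values measure the spread between these arrays only, and 3 arrays per group limit the precision.

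Cadherins are transmembrane proteins whose calcium-binding extracellular repeats hold neighbouring cells together. The tail of a classical cadherin binds p120-catenin and β-catenin, and α-catenin links β-catenin to actin, so β-catenin serves both the adherens junction and Wnt-driven transcription. CDH17, CDHR2 and CDHR5 lie outside the classical group and lack that tail. CDH17 sits on the lateral membrane of intestinal cells, and CDHR2 and CDHR5 bridge the tips of neighbouring microvilli in the brush border.

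Signals are linear intensities in arbitrary units. A probe set was tested if its mean log2 signal over the 12 arrays reached the median of all probe sets, a signal of 10.2. Of the 15 probe sets 10 were tested, from 6 genes, and the lowest group geometric mean among them was 11.6. The 5 dim ones, both for CDHR1 and 1 each for CDH1, CDHR5 and CTNNA1, are given as values or ranges. Changes are log2 differences ± standard error from limma, adjusted by Benjamini and Hochberg over the 27307 probe sets tested and called at an adjusted p under 0.05. Levels of different probe sets are not comparable with each other.

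The cells carried epithelial markers on every array: the summed signal of EPCAM, KRT8, KRT18, KRT19 and CLDN7 lay between 28949 and 31912 after dominant-negative Tcf4, 21722 and 24679 in that line uninduced, 23686 and 26437 after the shRNA, and 13999 and 16429 in that line uninduced. Of 9 fibroblast markers 5 passed the filter. The summed signal of all 9 was 253 to 271 after dominant-negative Tcf4 and 174 to 199 in that line uninduced, and 362 to 435 after the shRNA and 231 to 298 in that line uninduced. Of 5 leukocyte markers with a probe set 2 passed (sums of all 5 between 38.6 and 129.8 over all arrays), and of 4 endothelial ones 1 (sums of all 4 from 23.1 to 64.8). VIM, PTPRC, CDH5 and KDR were among those below the filter. The fibroblast markers that passed were COL1A1, DCN, LUM, ACTA2 and THY1. LUM rose by 1.94 ± 0.44 with the shRNA and 2.19 ± 0.44 under dominant-negative Tcf4, and ACTA2 by 0.92 ± 0.18 with the shRNA. In uninduced cells LUM was dim, with geometric means of 4.5 in the shRNA line and 21.8 in the other. The leukocyte markers that passed were CORO1A, which fell by 1.31 ± 0.29 with the shRNA, and LCP1, which rose by 1.52 ± 0.52 there. PECAM1 was the endothelial marker that passed. The brightest CTNNB1 probe set averaged 156 after the shRNA and 3784 uninduced, and that of TCF7L2 with the largest response averaged 1286 after dominant-negative Tcf4 and 108 uninduced, so both constructs read as labelled.

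On induction of the β-catenin shRNA, the cadherin gene CDH17 rose 4.82-fold and the α-catenin gene CTNNA1 rose by about 1.3-fold on 3 of its 4 tested probe sets. With dominant-negative Tcf4, CTNNA1 rose on all 4, by 1.44- to 1.78-fold, and both tested probe sets of CDHR5 rose, by 2.64- and 3.17-fold. By limma none of the 10 fell past the threshold in either induction, and 1 of them, CDH3 with dominant-negative Tcf4, was lower at an unadjusted p under 0.05. The widest contrasts lay between the uninduced derivatives: CDH17 was 8.87-fold higher and CDH3 5.66-fold lower in the dominant-negative Tcf4 line.

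With the shRNA 5 of 10 member probe sets were called, all higher, from 3 genes (CDH1, CDH17 and CTNNA1), where 25.1% of all tested probe sets were called, 12.2% higher and 12.9% lower. With dominant-negative Tcf4 6 of 10 were called, all higher, from 2 genes (CDHR5 and CTNNA1), against 26.1% called over all probe sets, 12% higher and 14.1% lower. Probe sets of 1 gene report on the same transcripts and are not independent, and CTNNA1 supplies most of these calls. Refitted with 1 probe set per gene, 3 of 6 were called with the shRNA and 2 of 6 under dominant-negative Tcf4. Over all genes in that fit 34% and 35.9% were called. Bright probe sets are also called more often: among those at or above the 75th percentile, 42.5% were called with the shRNA and 45.1% under dominant-negative Tcf4. The median change of the 10 was 0.41 for the shRNA and 0.54 for dominant-negative Tcf4, beside 0.01 and -0.04 over all probe sets tested. Each median of the 10 falls between CTNNA1 probe sets, at 0.407 and 0.417 (shRNA) or 0.528 and 0.543 (dominant-negative Tcf4). These medians thus rest on CTNNA1 and do not show a shift of the 6 genes as a set.

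**Figure D1:**
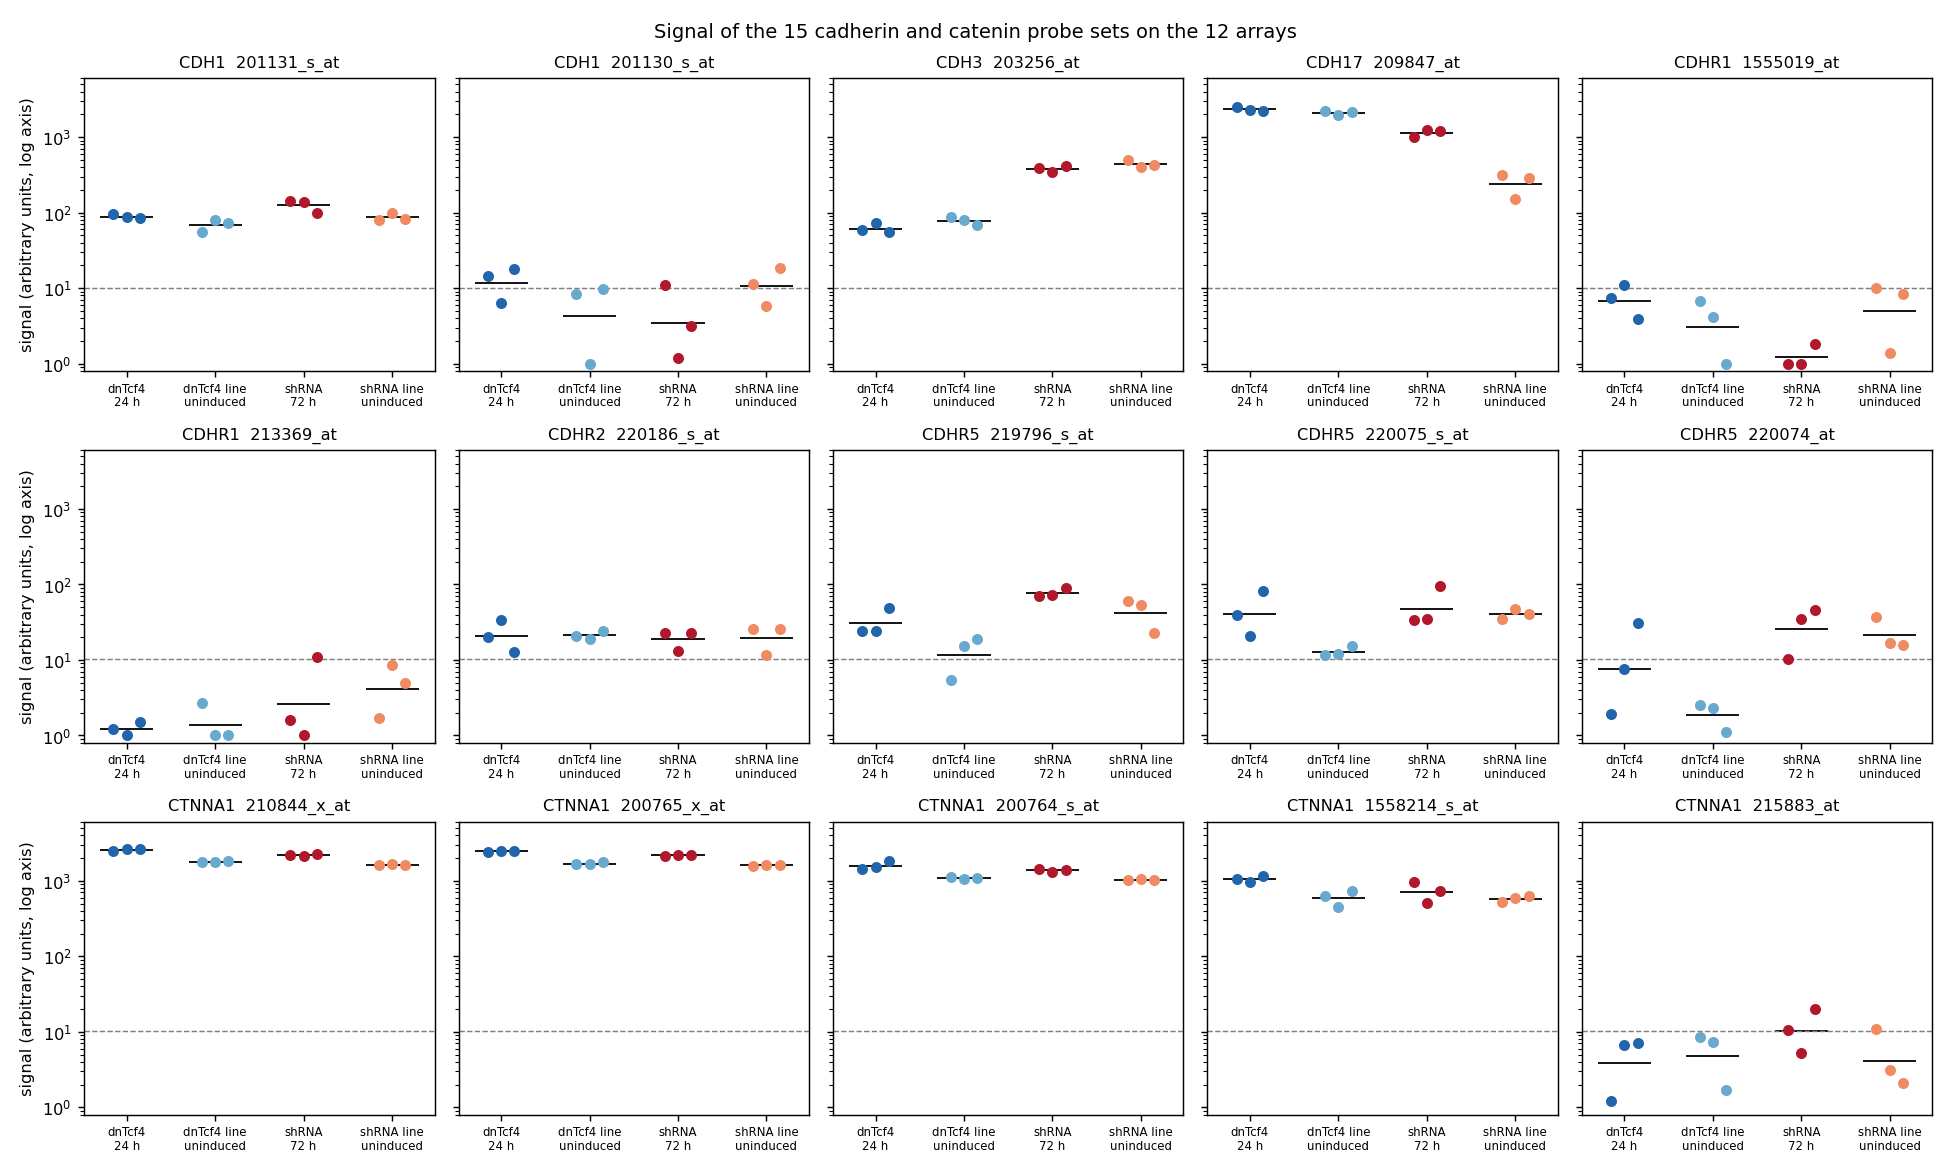
Signal (arbitrary units, log axis) of each of the 15 probe sets on the 12 arrays, 1 point per array, with the geometric mean of 3 arrays as a bar; values under 1 are drawn at 1, and the dashed line is the filter at 10.2. CDH17 and CDH3 differ between the lines, and both CDHR1 panels stay near or below the dashed line. The 4 tested CTNNA1 probe sets report on the same transcripts. All were called higher after dominant-negative Tcf4 and 3 of them after the shRNA, where 12% and 12.2% of all tested probe sets were called higher.

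CDH1 encodes E-cadherin, the main cadherin of epithelial adherens junctions. Its brighter probe set, 201131_s_at, gave 141.2, 140 and 98.3 after the shRNA and 78.9, 99.2 and 82.8 in uninduced cells of that line. Of the 3 induced arrays 2 lay above all uninduced ones, and replicate 3 lay within their range. The change of 0.53 ± 0.18 (1.44-fold) passed narrowly (adjusted p = 0.0472). The call was kept in 8 of 21 alternatives. It was lost without shRNA induced replicate 1 (0.44) or 2 (0.45) and without uninduced replicate 1 (0.46) or 3 (0.50). It was also lost, with the change itself at 0.53, when any 1 of the 3 dominant-negative Tcf4 arrays or uninduced replicate 3 of that line was left out of the shared fit (adjusted p 0.0522 to 0.0575).

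After dominant-negative Tcf4 the same probe set gave 95, 86.7 and 85.1, against 54.9, 80.7 and 71.9 uninduced. These groups did not overlap, yet the change of 0.38 ± 0.18 did not pass (adjusted p = 0.155, 95% interval -0.01 to 0.77). The changes in the lines differed by 0.15, shRNA minus dominant-negative Tcf4, with an interval of -0.41 to 0.70 (adjusted p = 0.79). The dimmer CDH1 probe set, 201130_s_at, ranged from 0.6 to 18.3 over the 12 arrays, with overlap in both inductions, and adds no level for this gene.

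CDH3 encodes P-cadherin, a classical cadherin best known from placenta and from the basal cells of layered epithelia. It is the neighbour of CDH1 in the GRCh38.p14 annotation, with 0 protein-coding genes between them. The CDH3 probe set 203256_at gave 394.9, 341.5 and 421.5 after the shRNA and 493.7, 404.4 and 429.3 uninduced. The arrays overlap, and the change of -0.20 ± 0.15 did not pass (adjusted p = 0.371). After dominant-negative Tcf4 it gave 58.3, 72.8 and 55, against 86.5, 80.2 and 68.1 uninduced. There the change was -0.34 ± 0.15 with overlapping arrays (adjusted p = 0.105), and it passed without dominant-negative Tcf4 induced replicate 2 (-0.46, adjusted p = 0.0383).

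The lines themselves stood apart in CDH3. Uninduced cells of the dominant-negative Tcf4 line averaged 78.3 ± 9.35 and those of the shRNA line 442 ± 46.1 (SD, n = 3 each), a difference of -2.50 ± 0.15 (adjusted p = 3.71e-09), called in all 21 alternatives. The 6 arrays of the dominant-negative Tcf4 line, from 55 to 86.5, lay below all 6 of the shRNA line, from 341.5 to 493.7. For CDH1 the same comparison gave -0.34 ± 0.18 and did not pass (adjusted p = 0.191). Of the 10 member probe sets 4 were called between the uninduced lines, 1 higher and 3 lower in the dominant-negative Tcf4 line, where 29.4% of all tested probe sets were called, 14.2% higher and 15.2% lower.

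CDH17, also named LI-cadherin, is the cadherin of intestinal epithelium that lacks a catenin-binding tail. Its probe set 209847_at gave 1003.8, 1241.3 and 1199 after the shRNA and 311.6, 150.4 and 283.9 in uninduced cells of that line. Every induced array lay more than 3 times above every uninduced one. The rise was 2.27 ± 0.19 (adjusted p = 2.86e-07) and was called in all 21 alternatives, with changes of 1.94 to 2.47. The lowest of the 3 uninduced arrays, replicate 2, set the lower end of these: without it the change was 1.94.

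With dominant-negative Tcf4 CDH17 gave 2510.7, 2280.5 and 2230.8, against 2233.9, 1953.7 and 2129.2 uninduced. These values overlap, and the change of 0.15 ± 0.19 did not pass (adjusted p = 0.628, interval -0.25 to 0.56). That standard error and interval use the spread of all 12 arrays, including the more variable uninduced shRNA arrays. Fitted to the compared arrays alone, the change was 0.15 ± 0.08 and did not pass either (adjusted p = 0.185). The responses of the lines differed by 2.12 ± 0.27 (adjusted p = 1.06e-04, interval 1.54 to 2.69), shRNA minus dominant-negative Tcf4. This was the only one of the 10 member probe sets called for a difference of responses, where 11.9% of all tested probe sets were called, 5.97% higher and 5.93% lower.

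The starting levels of CDH17 differed as well. Uninduced cells of the dominant-negative Tcf4 line averaged 2106 ± 142 and those of the shRNA line 249 ± 86.2 (SD, n = 3 each), a difference of 3.15 ± 0.19 (adjusted p = 5.74e-09). This comparison shares the uninduced shRNA arrays with the induction of the shRNA, so the values are not independent of each other. Ordered by level, CDH17 was highest after dominant-negative Tcf4 (2341 ± 149), then in that line uninduced, then after the shRNA (1148 ± 127) and lowest in that line uninduced. The upper 2 of these groups overlap; each other neighbour is separated without overlap. The shRNA line thus ended at a CDH17 signal below that from which the other line started.

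Most tested markers of differentiated intestinal cells were higher along with CDH17 in the shRNA line. The summed signal of 10 absorptive enterocyte markers, 5 of which passed the filter, was 5847 to 7777 after the shRNA and 1102 to 1148 uninduced. Of those 5, FABP1, KRT20 and CA1 rose, SLC5A1 fell by 1.31 ± 0.28 and VIL1 was not called (0.28 ± 0.10, adjusted p = 0.0573). The sum rests mainly on FABP1 and KRT20, with geometric means of 2509 and 2476 after the shRNA, against 16.7 and 24.5 uninduced. For 6 goblet cell markers, 5 of which passed, the sums were 4552 to 5426 after the shRNA and 1417 to 1648 uninduced. With dominant-negative Tcf4, where CDH17 was not called, the enterocyte sum was 1355 to 1429 against 509 to 555 uninduced, and the goblet sum 3252 to 4108 against 1006 to 1548. There FABP1, KRT20 and VIL1 rose and SLC5A1 fell by 1.71 ± 0.28. In bulk RNA more cells of a type and more RNA per cell cannot be told apart, and the part of either in the CDH17 change was not tested.

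**Figure D2:**
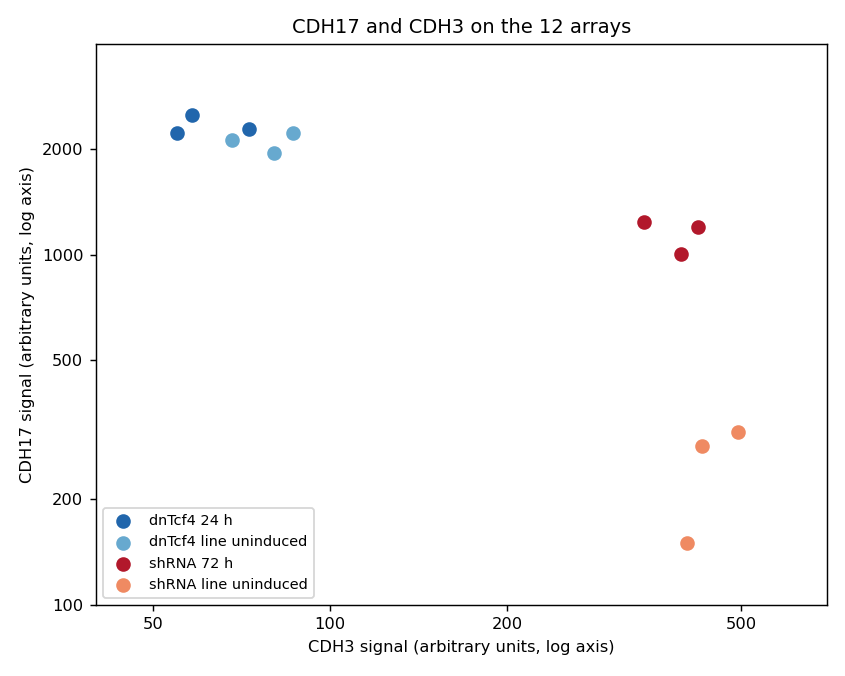
CDH17 signal against CDH3 signal (both in arbitrary units on log axes), 1 point per array, coloured by group. The 6 arrays of the dominant-negative Tcf4 line lie at CDH17 signals of 1953.7 to 2510.7 and CDH3 signals of 55 to 86.5; within the shRNA line, CDH17 separates the 3 induced from the 3 uninduced arrays and CDH3 does not.

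CDHR1 encodes a cadherin of photoreceptor outer segments. Its probe set 1555019_at ranged from 0.5 to 11 over the 12 arrays with 3 values under 1, and 213369_at ranged from 0.6 to 11 with 4 values under 1. Neither passed the filter, and groups overlapped in both inductions.

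CDHR2 and CDHR5 encode the protocadherins whose extracellular repeats join across the gap between microvilli. CDHR2, on 220186_s_at, gave 22.9, 13.3 and 23 after the shRNA and 25.4, 11.8 and 25.8 uninduced, and 20, 33.8 and 12.9 after dominant-negative Tcf4, against 20.5, 19.1 and 24 uninduced. All groups overlapped, and the changes were -0.05 ± 0.42 and -0.04 ± 0.42 (adjusted p = 0.956 and 0.966). The 95% intervals reach from -0.95 to 0.85 with the shRNA and from -0.94 to 0.86 with dominant-negative Tcf4, so changes inside them were not excluded at this signal.

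CDHR5 was read by 2 tested probe sets. On 219796_s_at dominant-negative Tcf4 gave 24, 24.5 and 48.3, against 5.4, 15.1 and 19 uninduced. The groups did not overlap, and the rise was 1.40 ± 0.45 (adjusted p = 0.0322). On 220075_s_at the values were 38.9, 20.5 and 83.1 after dominant-negative Tcf4 and 11.6, 11.9 and 15.1 uninduced, again without overlap, with a rise of 1.66 ± 0.45 (adjusted p = 0.0114). Induced replicate 3 was the highest array on both.

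These CDHR5 calls rest on few arrays. Without dominant-negative Tcf4 induced replicate 3 neither passed (1.07, adjusted p = 0.143, and 1.14, adjusted p = 0.0706), and without uninduced replicate 1 the change on 219796_s_at was 0.85 (adjusted p = 0.164). The call on 219796_s_at was also lost with no filter on dim probe sets, with no variance trend and with only the arrays compared (adjusted p 0.0542 to 0.0792). The third CDHR5 probe set, 220074_at, lay below the filter, at 1.9, 7.7 and 30.6 after dominant-negative Tcf4 and 2.5, 2.3 and 1.1 uninduced. In the shRNA line it gave 10.2, 35.3 and 45.3 induced and 37, 16.7 and 16 uninduced, with overlap. Without a filter, limma gave a difference of -3.54 ± 0.90 between the uninduced lines, dominant-negative Tcf4 line minus shRNA line (adjusted p = 0.0127).

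With the shRNA CDHR5 gave 69.6, 72.9 and 90.2 on 219796_s_at, against 60.9, 53.1 and 22.5 uninduced. The arrays did not overlap, and the change of 0.88 ± 0.45 did not pass (adjusted p = 0.181). On 220075_s_at the values were 33.9, 34.5 and 94.5 after the shRNA and 35.2, 47.3 and 41 uninduced, with overlap and a change of 0.23 ± 0.45 (adjusted p = 0.766). The difference of responses, shRNA minus dominant-negative Tcf4, was -0.51 (interval -1.88 to 0.85) on the first and -1.43 (interval -2.78 to -0.08) on the second, and neither passed (adjusted p = 0.688 and 0.174). That on 220075_s_at did pass without dominant-negative Tcf4 induced replicate 2 (-1.92, adjusted p = 0.0466).

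CDHR5 also started lower in the dominant-negative Tcf4 line. On 219796_s_at its uninduced cells averaged 13.2 ± 7.0 and those of the shRNA line 45.5 ± 20.3, and on 220075_s_at 12.9 ± 1.94 and 41.2 ± 6.05 (SD, n = 3 each). The differences of -1.85 ± 0.45 and -1.68 ± 0.45 were called (adjusted p = 0.00562 and 0.0098). They share the uninduced dominant-negative Tcf4 arrays with the induction in that line. After dominant-negative Tcf4 the means were 32.3 ± 13.9 and 47.5 ± 32.2.

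CTNNA1 encodes α-catenin, the actin-linking partner of β-catenin at the junction. Its brightest probe set, 210844_x_at, gave 2183.2, 2109.8 and 2241.3 after the shRNA and 1641.7, 1655.1 and 1595.2 uninduced. It gave 2485.1, 2641.7 and 2609.5 after dominant-negative Tcf4, against 1773.4, 1774.4 and 1815.8 uninduced. In both lines every induced array lay above every uninduced one, and the spread within groups was small beside the gap. The rise was 0.42 ± 0.06 with the shRNA (1.34-fold, adjusted p = 1.6e-04) and 0.53 ± 0.06 with dominant-negative Tcf4 (1.44-fold, adjusted p = 1.76e-05).

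Other probe sets of CTNNA1 gave similar sizes. On 200765_x_at the rise was 0.45 ± 0.07 with the shRNA and 0.54 ± 0.07 under dominant-negative Tcf4, and on 200764_s_at 0.41 ± 0.09 and 0.55 ± 0.09, with a largest adjusted p of 0.00326 among the 4. All 6 of these calls were kept in each of their 20 or 21 alternatives. The probe set 1558214_s_at was more variable, at 962.6, 501.3 and 734.8 after the shRNA and 518.9, 592.6 and 624.7 uninduced. Induced replicate 2 was the lowest of these 6 arrays, and the change of 0.29 ± 0.20 did not pass (adjusted p = 0.317); it passed without that array (0.54, adjusted p = 0.0345). With dominant-negative Tcf4 this probe set gave 1052.6, 969.4 and 1168.9, against 631.3, 451.9 and 741.2 uninduced, a rise of 0.83 ± 0.20 (adjusted p = 0.005).

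The CTNNA1 responses were not shown to differ between the lines: the differences, shRNA minus dominant-negative Tcf4, ran from -0.54 to -0.09 over the 4 probe sets, with adjusted p of 0.257 to 0.622. On 210844_x_at the interval was -0.31 to 0.08. Between the uninduced lines CTNNA1 was not called, with differences of 0.05 to 0.13, dominant-negative Tcf4 line minus shRNA line (smallest adjusted p 0.143). On 210844_x_at and 200765_x_at the arrays of the dominant-negative Tcf4 line lay above those of the shRNA line without overlap, and 210844_x_at was called with quantile normalization (0.17, adjusted p = 0.034). It was the only one of the 6 tested genes called in both inductions. Names ending in _x_at mark probe sets with probes that can bind other transcripts; the array annotation also lists a pseudogene, CTNNA1P1, under a probe set of its own. The fifth CTNNA1 probe set, 215883_at, lay below the filter at 1.2 to 20.

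**Figure D3:**
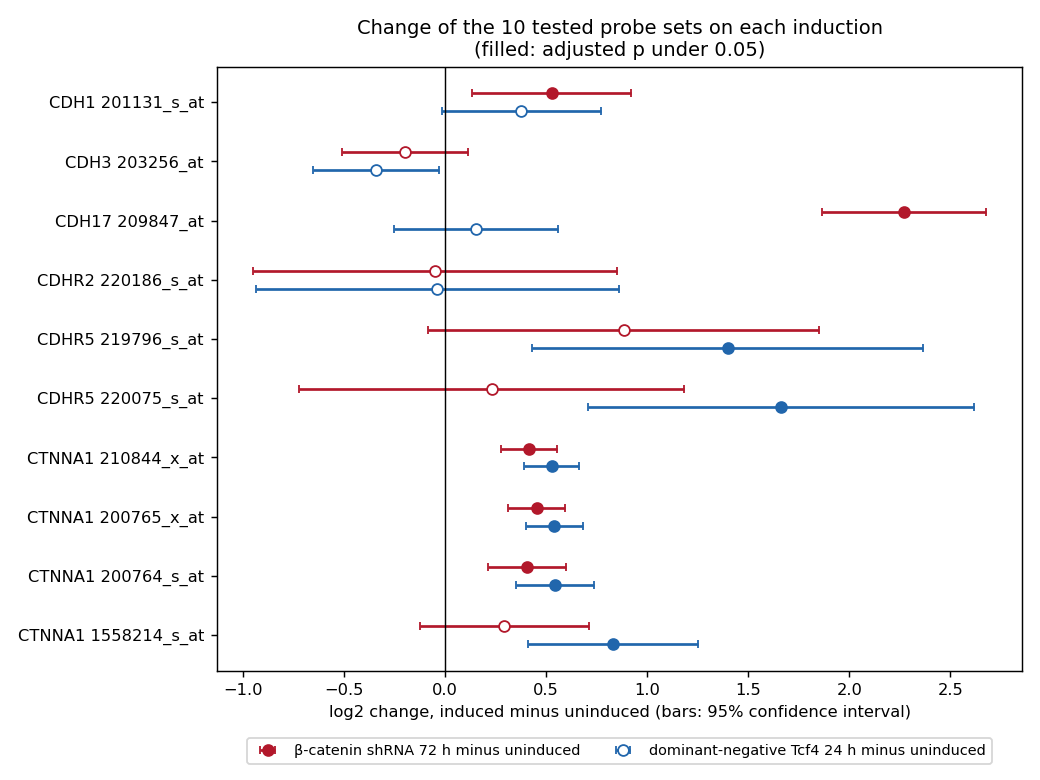
Log2 change (induced minus uninduced) of the 10 tested probe sets with its 95% confidence interval, for the β-catenin shRNA at 72 h and dominant-negative Tcf4 at 24 h; filled points passed at an adjusted p under 0.05. CDH17 with the shRNA stands furthest from 0 at 2.27, and CTNNA1 shows the narrowest intervals on its first 2 probe sets.

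Because CTNNA1 was called in both inductions, the RefSeq windows around its annotated transcript starts (GRCh38.p14, plus strand) were read. Of the 8 genes 3 had such windows: CTNNA1 had 4, CDHR2 had 2 and CDHR1 had 1. The DNA letters that TCF and LEF factors favour were searched as CTTTGAA and CTTTGAT, and as CTTTGTA and CTTTGTT, on both strands, and the E-box read by Snail and ZEB repressors of CDH1 as CAGGTG. Of all 35116 windows of 300 bases, 13.8% held a TCF match and 20.6% an E-box match. The first CTNNA1 window, from 250 bases before to 50 bases after the annotated gene start, held neither. The second, at chr5:138753572-138753871, held CTTTGTT at base 287, and the third, at chr5:138874980-138875279, held ATCAAAG, the reverse complement of CTTTGAT, at base 210. The fourth overlaps the third and holds the same match. Both printed windows are shown because they carry these letters, in capitals:
CTNNA1 window 2: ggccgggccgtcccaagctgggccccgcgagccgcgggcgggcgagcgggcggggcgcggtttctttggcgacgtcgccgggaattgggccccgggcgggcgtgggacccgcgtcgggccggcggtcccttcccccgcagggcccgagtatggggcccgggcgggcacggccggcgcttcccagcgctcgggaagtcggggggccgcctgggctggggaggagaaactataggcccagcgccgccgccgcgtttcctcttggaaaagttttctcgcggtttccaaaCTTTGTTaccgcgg
CTNNA1 window 3: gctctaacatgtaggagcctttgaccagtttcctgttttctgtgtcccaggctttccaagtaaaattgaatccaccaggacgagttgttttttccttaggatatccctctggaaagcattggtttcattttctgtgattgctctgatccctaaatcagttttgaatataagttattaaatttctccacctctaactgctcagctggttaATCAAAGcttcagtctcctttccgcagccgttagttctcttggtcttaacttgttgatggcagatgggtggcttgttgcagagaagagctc
Both CDHR2 windows held an E-box and no TCF match, and the CDHR1 window held neither. A match describes letters only and names no binding site.

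The genes that work with these members were read from lists, 1 probe set per gene, the brightest. Over all 12394 genes so tested, 15.3% were called higher and 16.3% lower with the shRNA, and 15% higher and 18.5% lower with dominant-negative Tcf4, with median changes of 0.02 and -0.05. Of 11 genes for partners of the microvillar cadherins and for the microvillus tip and core, all tested, 7 rose and 0 fell with the shRNA (median 0.73), and 11 rose with dominant-negative Tcf4 (median 1.11). With quantile normalization, and with arrays centred on their median, 10 of the 11 rose with dominant-negative Tcf4 and 7 with the shRNA. At an unadjusted p under 0.05, limma gave 8 higher and 1 lower with the shRNA. MYO7B, the myosin of the CDHR2 and CDHR5 complex at the tip, rose by 2.91 ± 0.60 with the shRNA and by 2.62 ± 0.60 under dominant-negative Tcf4. PLS1, an actin-bundling fimbrin, rose by 1.38 ± 0.13 with the shRNA, and MYO1A, the myosin that ties the actin core to the membrane, by 1.35 ± 0.40. MYO1A also started low, at a geometric mean of 20.8 in uninduced cells of the shRNA line.

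Within that complex the lines did not match throughout. CALML4, a calmodulin-like light chain of the tip complex, rose by 2.04 ± 0.11 with dominant-negative Tcf4, where its change with the shRNA was -0.26 and did not pass (adjusted p = 0.115). That difference of responses was -2.29 ± 0.16 (adjusted p = 1.82e-07), shRNA minus dominant-negative Tcf4. ANKS4B, a scaffold of the complex, rose in both lines, by 1.11 ± 0.37 with the shRNA and 1.45 ± 0.37 under dominant-negative Tcf4. Its uninduced geometric means were low, at 14.5 in the shRNA line and 17.4 in the other. USH1C, encoding harmonin, which binds the tails of CDHR2 and CDHR5, changed by 0.29 ± 0.15 without passing with the shRNA (adjusted p = 0.191) and rose by 1.11 ± 0.15 with dominant-negative Tcf4. The CDHR2 probe set itself was called in neither line, as given above.

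**Figure D4:**
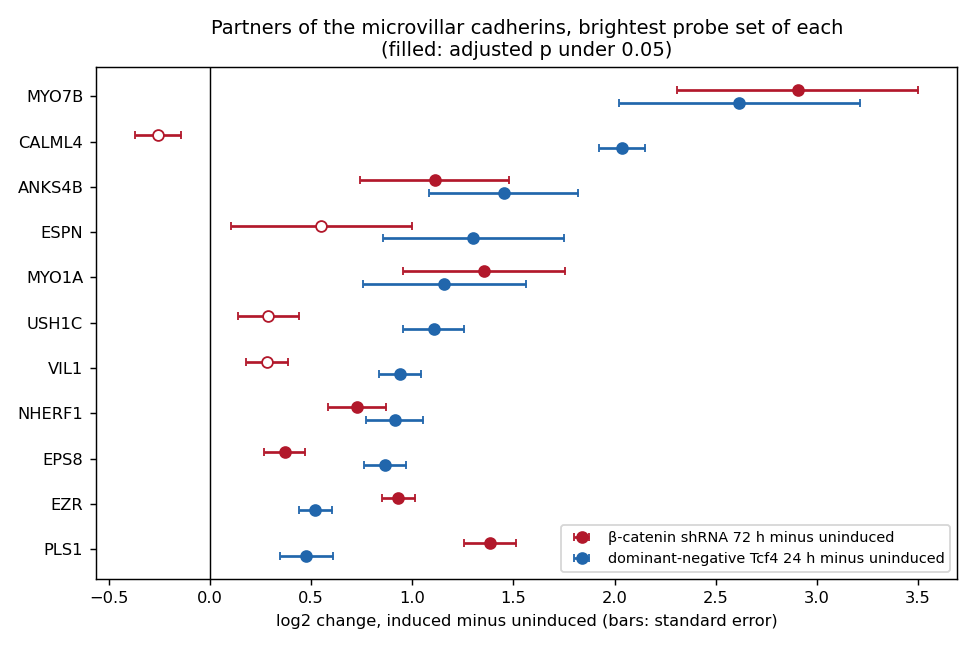
Log2 change (induced minus uninduced) with its standard error for the 11 genes of the microvillar list, brightest probe set of each, ordered by the change with dominant-negative Tcf4; filled points passed at an adjusted p under 0.05. All 11 points of dominant-negative Tcf4 (10 with quantile normalization or median centring) and 7 of the shRNA are filled, and CALML4 is the gene whose shRNA point lies below 0, at -0.26.

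Other catenins and the actin linkers of adherens junctions split with the shRNA, 5 of 19 tested genes higher and 4 lower (median 0.17). With dominant-negative Tcf4 7 were higher and 0 lower (median 0.17), and at an unadjusted p under 0.05, limma gave 8 higher and 0 lower. ACTN4, an α-actinin that crosslinks junctional actin, rose by 1.14 ± 0.09 with the shRNA and 1.01 ± 0.09 under dominant-negative Tcf4. NECTIN2, an immunoglobulin-type adhesion receptor of the same junctions, rose by 0.65 ± 0.12 with the shRNA and 0.87 ± 0.12 under dominant-negative Tcf4. LIMA1, an actin-binding protein that attaches to α-catenin, rose by 0.59 ± 0.13 with the shRNA and 1.14 ± 0.13 under dominant-negative Tcf4. PLEKHA7, which binds p120-catenin, rose by 1.54 ± 0.23 with dominant-negative Tcf4, and VASP rose by 1.07 ± 0.18 there. The targeted CTNNB1 was among the 4 that fell, and it fell by 4.61. CTNNAL1, a relative of α-catenin, fell by 1.0 ± 0.16, and NECTIN1 fell by 1.32 ± 0.25.

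Of desmosomal cadherins and plaque genes 10 of 15 were tested. With the shRNA 3 rose and 0 fell (median 0.24): PKP2, a plakophilin, by 0.76 ± 0.11, DSC2, a desmosomal cadherin, by 0.60 ± 0.08 and JUP, encoding plakoglobin, by 0.52 ± 0.09. With dominant-negative Tcf4 4 rose and 0 fell (median 0.09), among them PPL, encoding periplakin, by 3.07 ± 0.13, JUP by 0.94 ± 0.09 and EVPL, envoplakin, by 0.52 ± 0.16. At an unadjusted p under 0.05 the list had 5 higher and 0 lower with the shRNA, and 4 higher and 1 lower under dominant-negative Tcf4. Of 39 other cadherin genes 36 had a probe set and 15 were tested, so most lay below the filter. With the shRNA 1 rose and 2 fell (median 0.18), and with dominant-negative Tcf4 2 rose and 1 fell (median 0.26). CDH12 rose by 1.61 ± 0.22 with the shRNA. CELSR2, an atypical cadherin of planar cell polarity, fell by 0.67 ± 0.12 with the shRNA and fell by 0.62 ± 0.12 with dominant-negative Tcf4. FAT1, a giant cadherin, fell by 0.30 ± 0.10 with the shRNA and rose by 0.35 ± 0.10 with dominant-negative Tcf4. CLSTN1 rose by 0.37 ± 0.10 with dominant-negative Tcf4.

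Repressors of CDH1 and regulators of its turnover made up 17 entries, of which 8 were tested. SNAI1, SNAI2, ZEB1, ZEB2, TWIST1 and TWIST2, the transcription factors best known for lowering E-cadherin, all lay below the filter. With the shRNA 0 rose and 2 fell (median 0.12; 3 higher and 2 lower at an unadjusted p under 0.05), and with dominant-negative Tcf4 2 rose and 2 fell (median -0.12). TCF3, the helix-loop-helix factor E2A, fell by 0.87 ± 0.10 with the shRNA and fell by 1.04 ± 0.10 with dominant-negative Tcf4, and CTBP1, a corepressor, fell by 0.30 ± 0.08 with the shRNA and fell by 0.21 ± 0.08 with dominant-negative Tcf4. ESRP1, an epithelial splicing factor that acts on CTNND1 transcripts, rose by 0.60 ± 0.11 with dominant-negative Tcf4, and ADAM10 rose by 0.45 ± 0.15 there. Of intestinal transcription factors 8 of 12 were tested. With the shRNA 5 rose and 1 fell (median 0.62), and with dominant-negative Tcf4 2 rose and 1 fell (median 0.24). CDX2, known to activate CDH17, had changes of 0.22 with the shRNA and -0.27 under dominant-negative Tcf4, and neither passed (adjusted p = 0.373 and 0.258). ISX, an intestinal homeobox factor, rose by 6.06 with the shRNA. HNF4G rose by 1.34 ± 0.24 and KLF4 by 1.31 ± 0.11 with the shRNA. With dominant-negative Tcf4 KLF4 rose by 2.35 ± 0.11 and KLF5 by 0.64 ± 0.10. FOXA2 fell by 1.01 ± 0.19 with the shRNA and by 0.64 ± 0.19 under dominant-negative Tcf4.

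The genes whose signals followed each member most closely over the 12 arrays were ranked by Pearson's r, given as a description, since arrays of a group share its shift and arrays of a line share its level. For CDH17 the closest were ATP8A1 (0.97), UGT1A6 (0.97) and P2RX5 (0.97). UGT1A6, a glucuronosyltransferase, had geometric means of 711 after dominant-negative Tcf4, 593 in that line uninduced, 229 after the shRNA and 58.4 in that line uninduced. For CDH3 they were DHRS2 (0.995), PDGFC (0.992) and ZIC2 (0.991), all lower in the dominant-negative Tcf4 line. DHRS2, a short-chain dehydrogenase, had 129 and 252 there, induced and uninduced, against 5634 and 7464 in the shRNA line. For CTNNA1 they were LMNA (0.994), which encodes lamins of the nuclear envelope, TNIP1 (0.985) and LAMB3 (0.984), a laminin chain. LMNA had 1671 after dominant-negative Tcf4 and 824 uninduced, and 1214 after the shRNA and 672 uninduced. For CDHR5 they were PRSS16 (0.944), ITFG1 (0.940) and CASTOR1 (0.939), for CDH1 KLHL12 (0.958), LACC1 (0.945) and PFKFB2 (0.928), and for the dim CDHR2 SYDE2 (0.870), PHYHD1 (0.837) and AMBP (0.780).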

How the data were processed

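The authors deposited 1 intensity per probe set and array on a linear scale. Per the submitters' processing notes MAS5 and GCOS were used, with versions and genome build not given in the sources used here. All arrays had been scaled to a trimmed mean of 100 (middle 96%), with median signals of 12.1 to 15.3. The values carry no detection calls. Of 54675 probe sets 62 were controls and left out. Groups came from the sample titles. Symbols came from the array annotation and were updated through Entrez numbers for the lists.

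Values under 1 were set to 1, log2 was taken, and probe sets with a mean log2 of at least the median (3.35) were kept. A linear model with a mean for each of 4 groups, from limma 3.58.1 (R 4.3.3), used a variance trend (8 residual and 7.60 prior degrees of freedom). The contrasts were the induction of each line (induced minus uninduced), the shRNA change less the other (shRNA minus dominant-negative Tcf4), and the dominant-negative Tcf4 line minus the shRNA line, both uninduced. P-values are two-sided. The steps were tested on simulated data.

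The members and lists were chosen with earlier results of these data known. Named were all member probe sets, up to 3 called genes per list, induction and direction, and the 3 genes most like each member; other list genes, such as CDX2, CALML4 and USH1C with the shRNA, were named after their values were seen. Of 115 list entries 8 had no probe set of a single symbol and were not analysed here. Alternatives were quantile normalization, median centring, an offset of 3.5 before log2, no filter, a filter at the 75th percentile, 1 probe set per gene, no variance trend, a fit to the compared arrays alone, a replicate block, and leaving out each of the 12 arrays. Replicate correlations were 0.957 to 0.969 and no pair of arrays was identical.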

Additional observations from a re-analysis of the deposited data

Results flagged for a closer look

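The response of CDH17 differed between the lines. Its change with the shRNA minus that with dominant-negative Tcf4 was 2.12 on the log2 scale (limma, adjusted p = 1.06e-04), and every shRNA array lay above every uninduced array of its line, whereas arrays of the dominant-negative Tcf4 line overlapped. The starting signals differed too, at 2106 in uninduced cells of the dominant-negative Tcf4 line and 249 in those of the shRNA line, and the induction times were 24 h and 72 h. Construct, time and starting level cannot be told apart in this design.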

How the results depend on the processing

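Counts of called member probe sets were 5 with the shRNA, 6 with dominant-negative Tcf4, 1 for the difference of responses and 4 between uninduced lines. With 1 probe set per gene they were 3 with the shRNA and 2 under dominant-negative Tcf4, since only 6 probe sets were then counted, and the stricter filter left 2 between uninduced lines, since CDHR5 was no longer tested. Leaving out 1 array gave 4 to 5, 4 to 7, 1 to 2 and 4 to 5. No called member reversed direction under any alternative run. The replicate block gave 4, 6, 1 and 4, the call lost being that of CDH1 (adjusted p = 0.0634); same-numbered arrays deviated together with r of only -0.03 to 0.06, so the numbers were not taken as pairs. Quantile normalization added CTNNA1 210844_x_at between uninduced lines (0.17, adjusted p = 0.034). Median centring (0.48), no filter, no variance trend and a fit to the compared arrays alone each dropped CDH1 with the shRNA (adjusted p 0.0588 to 0.103). Without a filter 6058 of 54613 probe sets were called with the shRNA and 6223 under dominant-negative Tcf4 (11.1% and 11.4%). With 1 probe set per gene, 4216 of 12394 were called with the shRNA, 4455 under dominant-negative Tcf4 and 4627 between uninduced lines (34%, 35.9% and 37.3%), against 6855, 7126 and 8040 of 27307 (25.1%, 26.1% and 29.4%). With no variance trend the difference of responses had 2144 in place of 3249. Under median centring the desmosomal list had 3 higher in place of 4 with dominant-negative Tcf4, and the list of CDH1 repressors 1 lower in place of 2. Median centring moved the split between uninduced lines to 4746 higher and 2802 lower, from 3883 and 4157, with the median change at 0.12 in place of 0.01, and that of the difference of responses to 916 and 1388, from 1631 and 1618. Signals near the floor limit what can be read from CDHR1, CDHR2, the dim CDH1 probe set and CDHR5. Low uninduced signals likewise limit the sizes given for the rises of MYO7B, ANKS4B, MYO1A, ISX, LUM and LCP1.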
